A study of Rattus norvegicus and Mus musculus with 74 samples.

Results

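H3K27me3 was compared between the cerebral cortex of control rats and control mice, gene by gene, in 6 of the 74 samples of the series. Each species had 3 libraries. A gene entered when the same symbol was listed in the rat and the mouse table. That held for 14458 genes, out of 20110 in the rat table and 23362 in the mouse table. Where several regions listed a gene, it took the region whose signal, averaged over every library of that species, was greatest. Because the tables were made separately, the signal itself was not compared between species. Each gene instead got a percentile, its rank within a library among the 14458 genes, where 0 is the weakest and 100 the strongest H3K27me3 signal.

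The rats were of the Sprague-Dawley strain and the mice of the C57BL/6J strain, both labelled healthy and given vehicle. The labels name no prenatal injection for these control groups. The labels give neither age nor sex and do not say whether each library is its own animal. The p-values therefore speak of how far these libraries spread, and that spread may be technical. All libraries were made from whole cortex tissue with the same extraction protocol and the same H3K27me3 antibody product, in a different lot for each species. Species therefore cannot be told apart from strain, antibody lot, genome build or the set of regions. Used beside them were the control libraries of H3K4me3, H3K9Ac and H3K9me3, 3 per mark and species, and 6 further H3K27me3 libraries per species from prenatally exposed animals. The exposed rats had received valproate (VPA) and the exposed mice poly I:C, an agent that mimics viral RNA, and within each species 3 libraries came from animals given vehicle and 3 from animals given TAK-418, an inhibitor of the demethylase LSD1.

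H3K27me3, the trimethylation of lysine 27 of histone H3, is laid down by Polycomb repressive complex 2, whose catalytic subunit is Ezh2 or Ezh1. It is read by the Cbx subunits of Polycomb repressive complex 1. In mammals it covers CpG islands of silent developmental genes, often as broad domains, and in neurons it lies over regulators of other cell lineages and of development. In bulk tissue a percentile averages over neurons and glia, and a mark present in fewer cells cannot be told apart from less of the mark per cell.

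The median signal per library was 2.17, 3.42 and 1.66 in rat and 2.51, 2.80 and 2.82 in mouse, so rat control 2 stood apart in level. The 99th percentile of the signal was 5.82 to 9.13 times the median in rat and 3.34 to 4.71 times in mouse. No read counts stand behind these values in the tables and the depth is unknown. Among the markers of cortex, Tbr1, a transcription factor of deep-layer excitatory neurons, stood at a mean H3K9Ac percentile of 94.3 in rat and 62.7 in mouse. Krt5, a keratin of skin that should be silent in cortex, stood at 5.59 in rat and 5.57 in mouse. As lists, markers of excitatory cortical neurons had a median H3K9Ac percentile of 44.0 in rat and 41.1 in mouse, below Tbr1. Markers of inhibitory neurons stood at 22.1 and 18.9, and markers of astrocytes at 38.3 and 31.9. Markers of liver, muscle and skin stood at 24.0 and 30.5. All these lists lay below the median of all shared genes in both species. Inhibitory neuron markers were also below the markers of other tissues. H3K9Ac therefore did not set the markers of cortex apart as a whole, and Tbr1 is a single gene.

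Promoter sequences are shown for 7 genes that the comparison turns on, as the 250 bases before the start of the rat gene from RefSeq (GRCr8 build), 5′ to 3′ on the gene's strand, with each CG dinucleotide in capitals. Dmrta2 and Sp9, both transcription factors of brain development, stood among the strongest genes in both species. Mid1ip1, Lonrf3 and Pak1 were higher in rat, and Cast and Map2k6 were higher in mouse. For all 7 the region compared covered the gene start in both species.
Dmrta2: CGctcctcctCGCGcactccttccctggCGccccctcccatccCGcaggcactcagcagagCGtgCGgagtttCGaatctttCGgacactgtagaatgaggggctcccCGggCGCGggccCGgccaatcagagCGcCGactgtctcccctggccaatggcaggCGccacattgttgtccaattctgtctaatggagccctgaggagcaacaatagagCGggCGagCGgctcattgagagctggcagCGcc
Sp9: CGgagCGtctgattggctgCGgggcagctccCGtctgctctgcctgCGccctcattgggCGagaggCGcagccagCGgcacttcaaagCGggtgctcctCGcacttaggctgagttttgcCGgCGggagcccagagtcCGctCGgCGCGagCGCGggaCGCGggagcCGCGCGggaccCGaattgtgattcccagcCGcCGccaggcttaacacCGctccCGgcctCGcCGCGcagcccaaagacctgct
Mid1ip1: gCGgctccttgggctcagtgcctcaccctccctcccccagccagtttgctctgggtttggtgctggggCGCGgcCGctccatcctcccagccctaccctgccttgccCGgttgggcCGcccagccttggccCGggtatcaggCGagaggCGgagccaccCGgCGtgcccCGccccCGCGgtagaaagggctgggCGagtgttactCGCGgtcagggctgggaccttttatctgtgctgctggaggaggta
Lonrf3: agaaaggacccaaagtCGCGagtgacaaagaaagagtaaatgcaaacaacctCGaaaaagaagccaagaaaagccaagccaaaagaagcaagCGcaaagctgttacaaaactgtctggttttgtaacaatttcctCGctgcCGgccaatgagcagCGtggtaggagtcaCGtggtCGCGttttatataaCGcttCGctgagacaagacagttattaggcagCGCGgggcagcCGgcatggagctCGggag
Pak1: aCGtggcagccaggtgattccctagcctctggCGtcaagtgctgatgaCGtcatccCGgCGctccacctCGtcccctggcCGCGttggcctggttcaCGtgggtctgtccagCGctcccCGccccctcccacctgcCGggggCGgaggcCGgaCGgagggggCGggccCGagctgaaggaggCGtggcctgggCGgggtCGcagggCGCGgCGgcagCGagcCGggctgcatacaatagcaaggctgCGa
Cast: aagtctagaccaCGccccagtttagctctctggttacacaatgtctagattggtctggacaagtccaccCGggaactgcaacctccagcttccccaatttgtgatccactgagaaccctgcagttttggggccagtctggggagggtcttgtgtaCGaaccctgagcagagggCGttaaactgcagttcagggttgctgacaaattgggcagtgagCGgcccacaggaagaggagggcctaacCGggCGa
Map2k6: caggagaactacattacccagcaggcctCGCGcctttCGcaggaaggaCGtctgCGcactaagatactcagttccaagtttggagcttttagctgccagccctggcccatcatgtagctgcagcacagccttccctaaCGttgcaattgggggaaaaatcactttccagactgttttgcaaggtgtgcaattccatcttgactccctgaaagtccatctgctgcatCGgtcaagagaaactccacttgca

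Read on their own strand, the stretches lay at chr5:130034223-130034472 (+) for Dmrta2, chr3:78554095-78554344 (+) for Sp9, chrX:14735721-14735970 (-) for Mid1ip1, chrX:120430781-120431030 (+) for Lonrf3, chr1:161522200-161522449 (+) for Pak1, chr2:5816987-5817236 (-) for Cast and chr10:95872497-95872746 (+) for Map2k6. Sp9 held 31 CG dinucleotides, Pak1 26, Dmrta2 20, Mid1ip1 17 and Lonrf3 16, while Cast and Map2k6 each held 7. The ratio of observed to expected CG was 1.06 in Lonrf3, 1.0 in Sp9, 0.797 in Pak1, 0.777 in Dmrta2, 0.562 in Mid1ip1, 0.434 in Map2k6 and 0.364 in Cast. A ratio above 0.6, a usual mark of CpG islands, was found in 35.4% of the 27457 promoters in the RefSeq table and in 60.4% of the 10993 shared genes that had a promoter there. The share was 76.1% of 310 promoters among genes that were higher in rat and had comparable regions over the start, and 63.9% of 144 among such genes that were higher in mouse. Among genes in the top 5% of both species it was 58.5% of 270, and it was 69.9% of 4824 among genes below the median in both, so CG density of these short stretches did not set the strongest genes apart. The region of a gene, which is much longer, held a CpG island in 98.5% of the 395 genes in the top 5% of both species in the rat table and in 99.7% in the mouse table, against 79.2% and 83.0% of all shared genes. These regions were also longer, with medians of 41999 bp in rat and 59599 bp in mouse, against 13799 and 17999 bp over all shared genes.

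The order of genes by H3K27me3 was broadly shared between the species and differed more between them than among libraries of a species. As a description across 14458 genes, which are not independent, the rank correlation of a rat with a mouse library was 0.637 to 0.720. It was 0.852 to 0.912 between rat libraries and 0.917 to 0.958 between mouse libraries. The median absolute difference of the species means was 10.7 percentile points, beside a median SD of 4.83 points over the rat libraries and 3.79 over the mouse libraries. In all, 6909 genes (47.8%) differed by less than 10 points. The top 5% held 708 genes in rat and 713 in mouse, and 395 genes were in both, 55.8% of the rat set and 55.4% of the mouse set. For 6896 genes the regions compared were matched, meaning that they covered the gene start in both species and differed in length by less than 2 times. This class was defined after the values had been seen. Among matched genes the rank correlation of the species means was 0.837, against 0.605 among the other 7562 genes, and 67.0% of the rat top set and 63.6% of the mouse top set were shared.

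**Figure D1:**
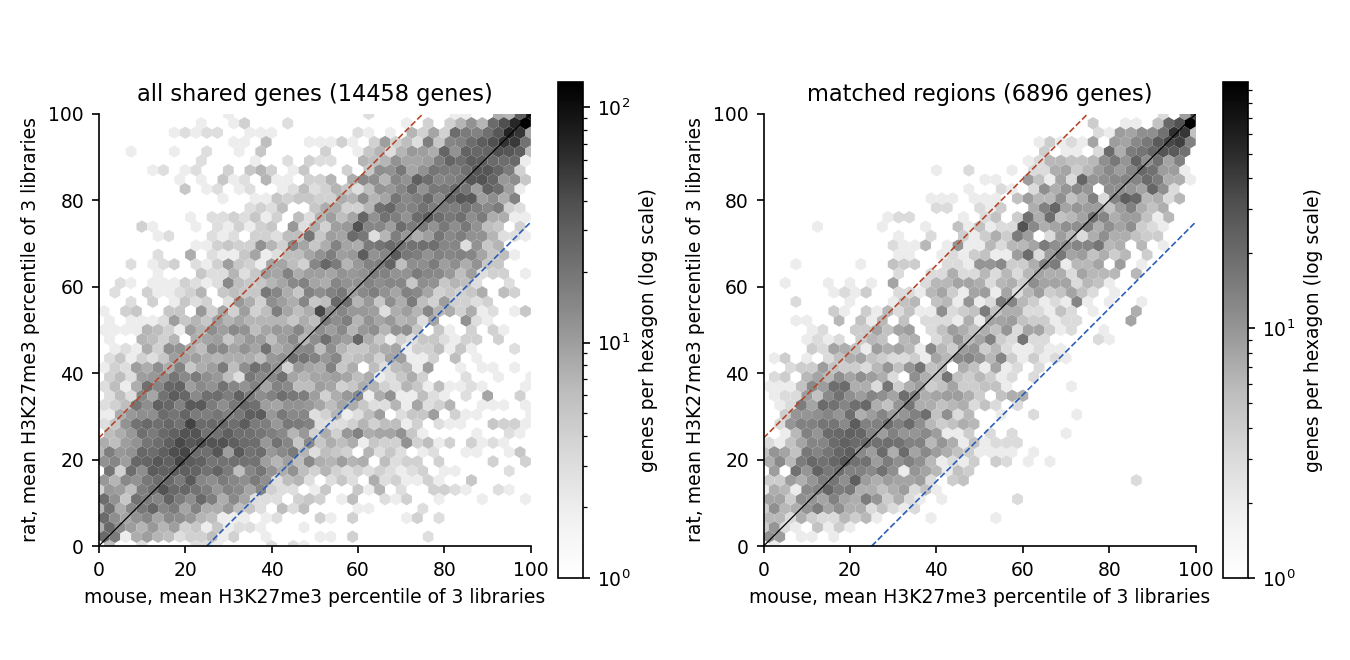
Mean H3K27me3 percentile of each gene over 3 control libraries of mouse (horizontal axis) and rat (vertical axis), for all 14458 shared genes (left) and for the 6896 with matched regions (right), shaded by the number of genes per hexagon on a log scale. The dashed lines mark a difference of 25 percentile points. Points lie along the diagonal and crowd its upper right corner, and far fewer lie near the other 2 corners among matched regions.

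The Hox genes, which set position along the body axis, were at the top of the range in all 6 libraries. All 30 shared Hox genes had a mean percentile of at least 95 in both species. A call needs a difference of at least 25 points, so none of them could be called on the percentile scale. Hoxd13, which shapes digits and shares its region with other HoxD genes, had signals of 35.8, 41.4 and 16.9 in rat and 12.8, 18.6 and 19.4 in mouse. These gave percentiles of 99.9 in each rat library and 99.8 in each mouse library, although the signals differed by library. Hoxa6, the lowest of the HoxA cluster, stood at 96.4, 97.3 and 98.0 in rat and at 100, 100 and 99.9 in mouse. In rat it took a short region of 399 bp, and in mouse it shared a domain of 198799 bp with the rest of the cluster. Hoxa6 was called lower in rat with the highest signal of the region (-26.5 points) and on quantile-normalized log2 signal (-1.20 log2 units). Hoxb13 stood at 96.9, 96.5 and 97.4 in rat and 99.1, 99.3 and 99.2 in mouse, and again the mouse gene was in the longer region (97599 bp in rat, 353799 bp in mouse). The 30 genes fall into only 8 pairs of regions, so they are not 30 separate observations.

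Regulators of development outside the Hox clusters were nearly as high and nearly as alike. Of 75 homeobox and paired-box genes, 60 were in the top 5% of both species, with a median percentile of 98.2 ± 0.257 (SD, n = 3 libraries) in rat and 98.2 ± 0.0555 (n = 3) in mouse. Pax6, which directs eye and forebrain development, stood at 99.3, 99 and 99.2 in rat and at 99.7, 99.4 and 99.4 in mouse. Cdx2, a regulator of the gut, was between 99.5 and 99.6 in all 6 libraries. Of 31 forkhead, Sox, GATA and T-box genes 21 were in both top sets, and of 35 basic helix-loop-helix and other regulators 21 were. In all, 3 members of these lists were called, by limma with a Benjamini-Hochberg adjusted p under 0.05 and a difference of at least 25 points. Gata4, a regulator of heart and endoderm, stood at 61.7, 69.6 and 60.7 in rat and 98.6 in each mouse library, a difference of -34.6 points (rat minus mouse, SE 2.35, adjusted p = 6.7e-05). Lmx1a, a regulator of midbrain dopamine neurons, was also lower in rat, by 32.3 points on the same scale. Both took a short rat region that did not cover the start (2999 and 6199 bp), and a mouse domain over 100 kb long (129799 and 154599 bp). With the region nearest to the start, Gata4 differed by 0.370 points and Lmx1a by -3.23, and neither was called. Msc, a basic helix-loop-helix factor of muscle, was higher in rat, with 91.6, 93.2 and 90.5 against 56.4, 72.6 and 65.7 (difference 26.9, SE 3.81, adjusted p = 0.0014), and its regions were matched. Among all shared genes, the background for these counts, 7.81% were called higher in rat and 8.78% higher in mouse, while the shares were 0% and 1.33% of the homeobox list, 0% and 3.23% of the forkhead list and 2.86% and 0% of the basic helix-loop-helix list. Members in both top sets could not reach the 25 points that a call needs, so these low shares were in part fixed by the scale.

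Wnt ligands, secreted signals of development, had a median percentile of 94.2 ± 0.260 (n = 3) in rat and 95.1 ± 0.162 (n = 3) in mouse, and 7 of 19 were in both top sets. Wnt1, a signal of the midbrain and hindbrain border, stood at 98.4, 98.1 and 98.4 in rat and 97.8, 97.7 and 97.5 in mouse. Wnt5b was the only Wnt gene called, with 82.2, 80.8 and 78.4 in rat and 60.5, 49.6 and 49.4 in mouse. Its mouse region lay with its centre 59548 bp from the gene start and carried H3K4me3 at a percentile of 92.9, against 9.98 in the rat region. With the regions nearest to the start the difference was -8.42 points, so that its direction rests on the region chosen. Among 43 members of the FGF, BMP, GDF and hedgehog families, 9 were in both top sets, 2 were called higher in rat (4.65%) and 3 higher in mouse (6.98%), both below the background. The 9 in both top sets could not be called. Fgf12 and Fgf13 were the 2 higher in rat, and unlike the ligands of the list they encode proteins that are not secreted but stay inside neurons and bind sodium channels. Fgf12 stood at 53.2, 50.3 and 52.8 in rat and 16.0, 31.9 and 23.0 in mouse. Fgf13 stood at 55.9, 60.4 and 41.2 in rat and 2.35, 7.40 and 0.643 in mouse, and no library of one species reached the range of the other for either gene. With the region of highest H3K27me3 Fgf12 differed by 16.3 points and was not called. On quantile-normalized log2 signal neither gene was called, with 0.332 log2 units for Fgf12 and 0.651 for Fgf13.

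**Figure D2:**
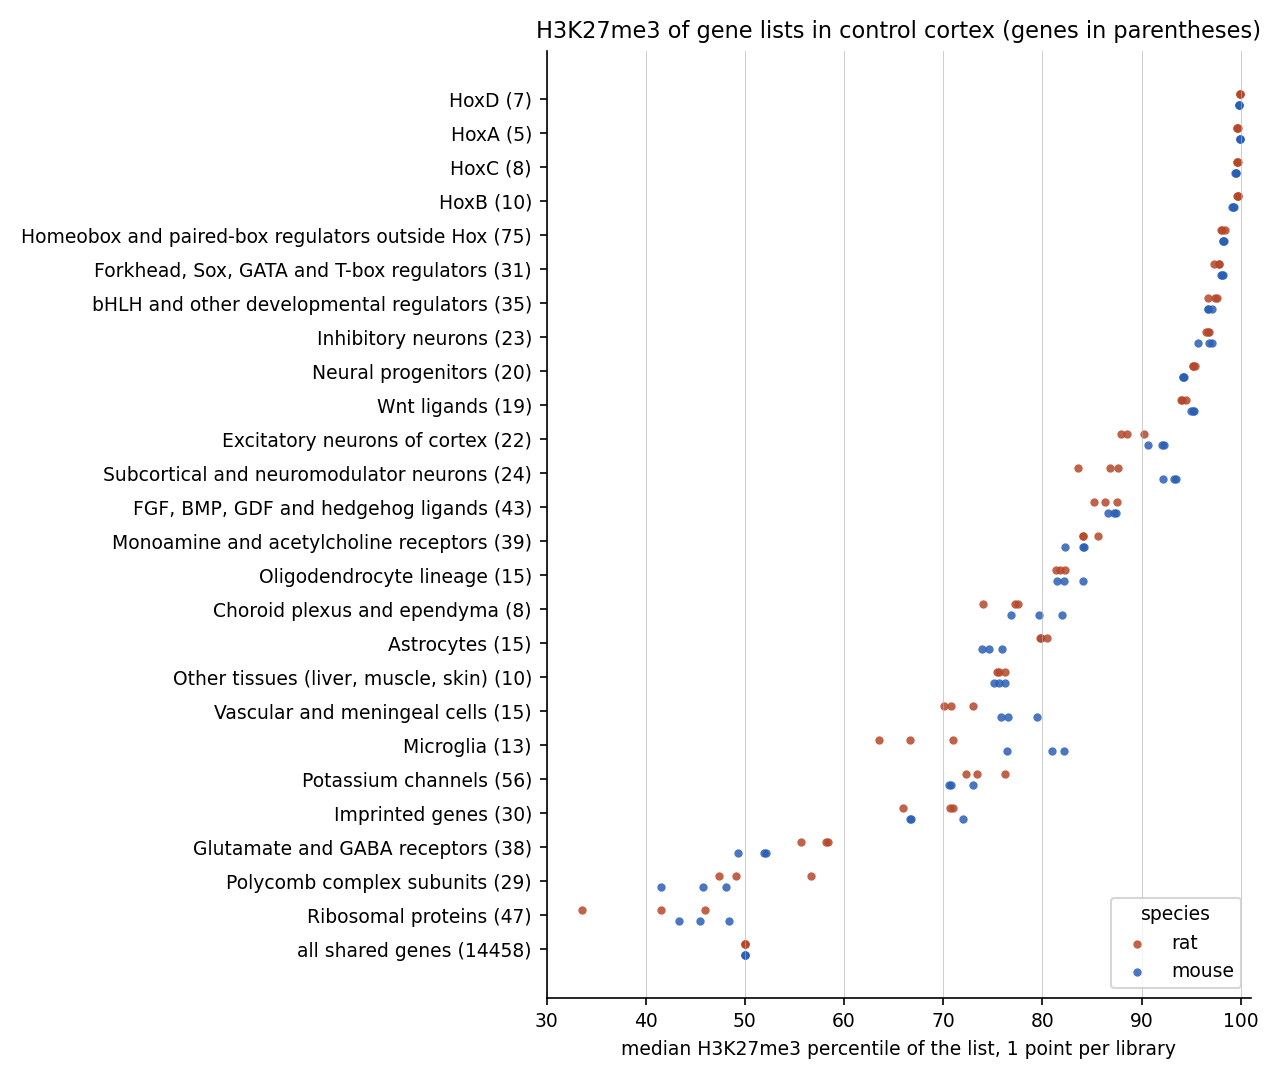
Median H3K27me3 percentile of each gene list (vertical axis, number of shared genes in parentheses) in each of the 3 rat and 3 mouse control libraries (horizontal axis, 1 point per library). Hox clusters and developmental regulators sit above 96 in both species, while library medians of ribosomal protein and Polycomb subunit genes lie between 33.6 and 56.6.

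Genes of specific cortical neurons carried high H3K27me3 in both species. Of 23 inhibitory neuron genes 12 were in both top sets, with a median percentile of 96.7 ± 0.126 (n = 3) in rat and 96.5 ± 0.719 (n = 3) in mouse. Gad1, which makes the transmitter GABA, stood at 98.2, 97.9 and 98.2 in rat and 97.1, 97.2 and 96.7 in mouse. Excitatory neuron genes had medians of 88.9 ± 1.18 (n = 3) in rat and 91.6 ± 0.878 (n = 3) in mouse. Npy, a peptide of interneurons, was called lower in rat, with 59.6, 61.6 and 61.4 against 93.9, 93.9 and 94.8. Sox6, a factor of interneurons, was also called lower in rat, with 75.4, 64.0 and 77.4 against 99.6, 99.4 and 99.3. These 2 of 23 genes (8.70%) are at the background of 8.78%, although the 12 in both top sets could not be called. For Npy the rat region was 2599 bp long and did not cover the gene start. For Sox6 the rat region had its centre 97011 bp from the gene start. Tle4, a corepressor of deep-layer neurons, was higher in rat, with 57.2, 39.5 and 52.4 against 13.5, 24.3 and 10.6 in mouse, in regions that covered the start in both. With the regions of highest H3K27me3 the difference for Tle4 was -3.52 points.

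Over all shared genes, 1129 (7.81%) were called higher in rat and 1269 (8.78%) higher in mouse, and 1128 and 1268 of these had no overlap between the 3 rat and the 3 mouse libraries. The calls were made on the same libraries, so this separation follows largely from the call rule and is no further support. On log2(signal + 1) with each library centred on its median and at least 1 log2 unit, the split was 512 toward rat and 228 toward mouse. With ranks taken among the matched genes alone, it was 284 and 265, while the fit on all shared genes called 402 (5.83%) of the matched genes higher in rat and 185 (2.68%) higher in mouse. The calls moved with the length of the regions compared. Where the rat region was more than 8 times shorter than the mouse region, 34.3% of 519 genes were called higher in mouse and 6.94% higher in rat. Where it was more than 8 times longer, 31.6% of 155 genes were called higher in rat and 8.39% higher in mouse. Where lengths were within 2 times, the shares were 6.77% and 4.60% of 9485 genes. The choice of region also decided which genes were called. Under 2 other choices, the region with the highest H3K27me3 and the region nearest to the gene start, similar numbers were called, but only 432 of the 1129 genes (38.3%) and 451 of the 1269 (35.5%) were called in the same direction under all 3.

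**Figure D3:**
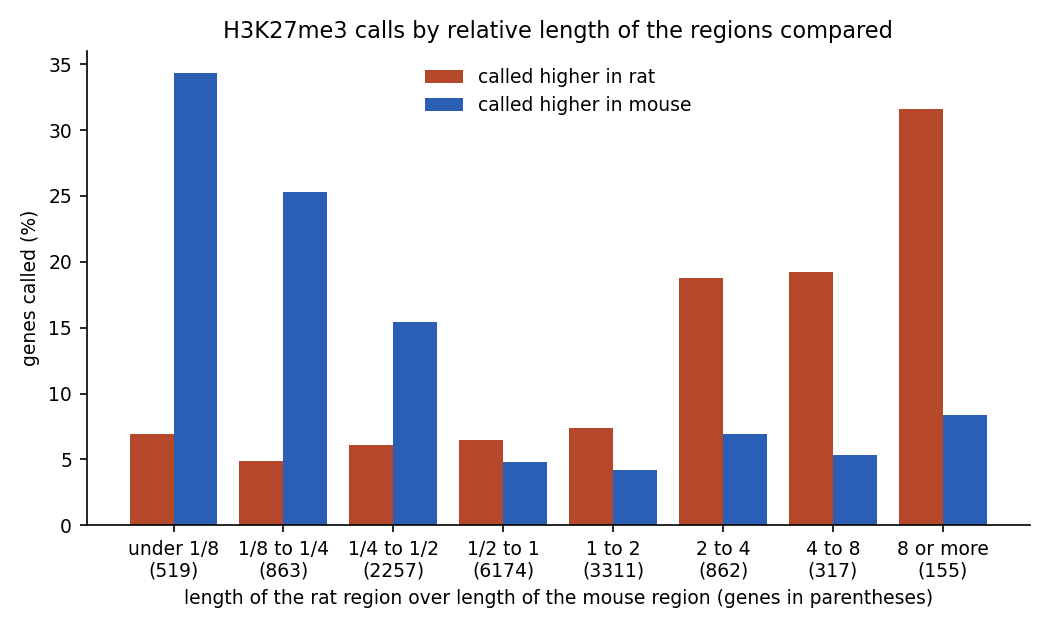
Share of genes called higher in rat or in mouse for H3K27me3 (vertical axis, %) by the length of the rat region relative to the mouse region (horizontal axis, number of genes in parentheses). Calls toward mouse are at 34.3% where the rat region is more than 8 times shorter and between 4.2% and 8.39% where it is at least as long as the mouse region, and calls toward rat are at 31.6% where it is 8 or more times longer.

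The 24 genes named for the largest differences, 12 in each direction, mostly had their strong signal in a region away from their own start. None of the 24 had matched regions, and in 8 of 12 toward rat and 8 of 12 toward mouse the region with the strong signal did not cover the start of the gene. Pola1, a subunit of DNA polymerase alpha on the X chromosome, stood at 96.8, 96.5 and 96.7 in rat and at 9.54, 16.8 and 0.131 in mouse. Its rat region was centred 310754 bp from the gene start, and its mouse region was centred 56 bp from the start. With the region nearest to the start in each species the difference was -5.79 points. Mgea5, which encodes the enzyme that removes O-GlcNAc, shared its rat region with Fgf8, a signal that patterns the forebrain, and had percentiles of 96.4, 95.9 and 95.6 there. In mouse it stood at 29.1, 8.65 and 15.1 in a region centred 1792 bp from its start, while Fgf8 in mouse stood at 98.1, 98.2 and 98.1.

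The same arrangement was seen toward mouse. Morn5 stood at 99.6, 99.7 and 99.7 in mouse and at 3.72, 13.4 and 27.0 in rat. Its mouse region was that of Lhx6, a regulator of interneurons, which stood at 98.7, 98.2 and 98.9 in rat. Rnf219 stood at 99.7, 99.5 and 99.4 in the mouse region of Pou4f1 and at 31.0, 21.0 and 4.91 in rat. Pou4f1, a regulator of sensory neurons, had species means of 98.7 in rat and 99.5 in mouse. Of the 12 genes toward rat 10 were called higher in mouse for H3K4me3, the mark of active promoters (background 8.33%). Of the 12 toward mouse 8 were called higher in rat for it (background 8.53%). None of these genes had matched regions, so their H3K4me3 was compared in regions that differed in length or did not both cover the start. Whether H3K4me3 and H3K27me3 lay on opposite sides at the same site was not tested for them.

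Genes with matched regions that were called in the same direction under all 3 region choices numbered 224 toward rat and 82 toward mouse. More than 1 region was listed for 9094 of the 14458 shared genes in rat and for 7990 in mouse. For a gene with 1 region in each species the 3 choices take the same regions and only the ranks shift. Its agreement was then largely fixed in advance and is no separate support. They were picked after the values were seen, and those named were among the largest differences of this class. These largest differences were taken only from genes without overlap between the rat and the mouse libraries. On quantile-normalized log2(signal + 1) with a minimum of 1 log2 unit, several missed the minimum, among them Sdc2 (0.833), Nr3c2 (0.780), Pak1 (0.767), Rgs17 (0.929), Rundc3b (0.824), Map2k6 (-0.972), Mapre3 (-0.717), Ermn (-0.624) and Zfyve26 (-0.590). Sdc2, a cell surface proteoglycan, had signals of 3.13, 4.70 and 1.98 in rat and 1.71, 1.41 and 1.77 in mouse. The rat percentiles were 62.8, 65.2 and 60.9 and the mouse percentiles 4.31, 0.854 and 6.60, a difference of 59.0 points (SE 4.91, adjusted p = 0.00013). All 3 rat libraries were in the middle of the range and all 3 mouse libraries near its bottom. Nr3c2, the mineralocorticoid receptor, stood at 65.1, 76.3 and 52.6 in rat and 6.68, 6.32 and 9.49 in mouse, while H3K4me3 there was at a mean percentile of 99.4 in rat and 99.7 in mouse. Pak1, a kinase that acts on the actin cytoskeleton, stood at 67.9, 72.1 and 54.7 in rat and 13.2, 5.43 and 7.33 in mouse (difference 56.2, SE 6.13, adjusted p = 0.00043). Its rat region was chr1:168973200-168979199 on rn5 and its mouse region chr7:97840600-97851599 on mm10, both over the start.

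Further genes of this class were also higher in rat. Rgs17, which shortens G protein signalling, stood at 71.5, 89.5 and 59.1 in rat and 4.80, 18.1 and 26.9 in mouse, with rat control 2 the highest. Rundc3b stood at 56.5, 87.1 and 39.9 in rat and 6.27, 2.31 and 5.90 in mouse, again with rat control 2 far above the others. Arhgap42 stood at 89.0, 80.7 and 82.6 in rat and 24.5, 41.3 and 17.4 in mouse. Chadl, a protein of the extracellular matrix, stood at 95.8, 94.9 and 94.0 in rat and 32.3, 42.6 and 31.2 in mouse. The ranges of the species did not meet in any of these 4 genes, which was a condition of their choice. Fv1, also in this class, lay with different neighbours in the 2 tables and may not be the same gene, since genes were paired by symbol alone.

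Toward mouse, Cast, the inhibitor of the calpain proteases, had signals of 1.47, 2.73 and 1.14 in rat and 4.27, 6.13 and 5.13 in mouse. Its percentiles were 27.0, 36.4 and 9.23 in rat and 89.3, 88.9 and 79.4 in mouse (difference -61.7, SE 7.09, adjusted p = 0.00054). Both regions were short, chr2:1528000-1532599 on rn5 and chr13:74805800-74810799 on mm10, and listed no other gene. Cast was called higher in rat for H3K4me3 (mean percentiles 97.3 and 43.3) and H3K9Ac (96.1 and 17.1), so at this gene the activating marks and H3K27me3 lay on opposite sides. Map2k6, a kinase upstream of p38, stood at 19.5, 3.32 and 39.8 in rat and 84.4, 73.7 and 74.2 in mouse, and H3K4me3 there was at 41.5 in rat and 42.7 in mouse. Zfyve26, a protein of lysosome recycling, stood at 5.00, 3.35 and 7.27 in rat and 59.8, 51.6 and 50.1 in mouse. Ermn, a cytoskeletal protein of oligodendrocytes, stood at 17.0, 6.55 and 15.8 in rat and 62.5, 61.8 and 59.2 in mouse. Mapre3, which binds the growing ends of microtubules in neurons, stood at 20.1, 19.4 and 14.2 in rat and 70.0, 65.9 and 67.1 in mouse. Rat control libraries lay below every mouse library in all 5 genes, since genes with overlap were not taken.

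**Figure D4:**
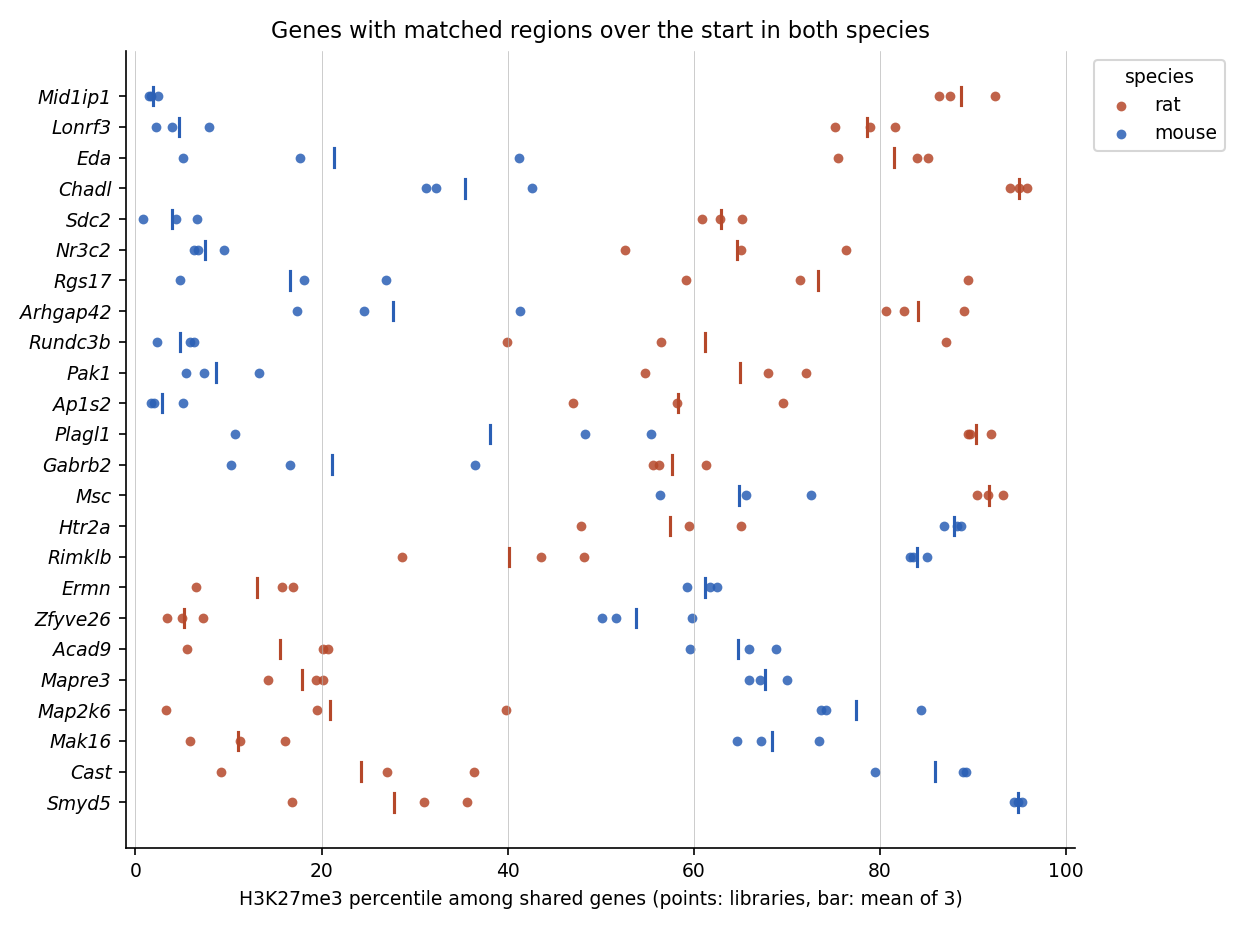
H3K27me3 percentile (horizontal axis) of 24 genes with matched regions (vertical axis), picked after their values were seen, in each of 3 rat and 3 mouse control libraries (points) with the mean of each species (bars). The differences run from Mid1ip1 (rat higher by 86.9 points) to Smyd5 (mouse higher by 67.0 points). Rat and mouse points do not overlap for any gene shown, which was a condition for genes named by the largest difference and so is no separate result.

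Among 38 glutamate and GABA receptor genes, through which neurons receive fast signals, the median difference was 9.03 points toward rat, beside 0.325 over all shared genes, with 5 genes called higher in rat (13.2%, background 7.81%) and 3 higher in mouse (7.89%, background 8.78%). Among genes above the median of the mean percentile the median difference of the list was 3.91 points. All 5 toward rat had matched regions, and none of the 3 toward mouse did. Of the 38 genes 25 had matched regions. Over all shared genes 402 of the 1129 calls toward rat and 185 of the 1269 toward mouse had them, so calls with matched regions leaned toward rat in general. Gabrb2, a subunit of the GABA-A receptor, stood at 56.2, 61.3 and 55.6 in rat and 16.6, 36.5 and 10.3 in mouse (difference 36.6, SE 7.40, adjusted p = 0.0067). Gria2, a subunit of AMPA receptors, stood at 50.6, 50.5 and 25.1 in rat and 23.2, 13.1 and 7.66 in mouse, so that the lowest rat library was just above the highest mouse library. Its call was lost with the region of highest H3K27me3 (20.1 points) and with the highest signal of the region (13.5). Toward mouse, Grm3 stood at 1.70, 2.82 and 2.12 in rat, in a region centred 43531 bp from the start with an H3K4me3 percentile of 3.65. In mouse it stood at 52.7, 32.6 and 47.0, in a region over the start with an H3K4me3 percentile of 96.7.

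Of 56 potassium channel genes 7 were called higher in rat (12.5%, background 7.81%) and 2 higher in mouse (3.57%, background 8.78%). Kcnd2, a channel of fast-inactivating currents in dendrites, stood at 44.4, 52.8 and 44.4 in rat and 11.2, 15.4 and 9.61 in mouse. Kcnv1, a modifying subunit, stood at 66.3, 71.9 and 64.5 in rat and 28.8, 46.1 and 46.7 in mouse. Both calls were lost with the highest signal of the region, at 23.4 and 18.9 points. Of 39 monoamine and acetylcholine receptor genes 1 was called in each direction (2.56%), below the background. Htr2a, a serotonin receptor, was lower in rat with 59.5, 47.8 and 65.0 against 88.3, 88.7 and 86.8, in matched regions.

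Of 13 microglial genes 3 were called higher in mouse (23.1%, background 8.78%) and 0 in rat, with a median percentile of 67.0 ± 3.76 (n = 3) in rat and 79.9 ± 3.04 (n = 3) in mouse and no overlap of the library medians. The median difference of the list was -9.60 points (rat minus mouse), and -5.13 with the regions nearest to the start. Tyrobp, a signalling adaptor of microglia, stood at 57.0, 61.8 and 58.6 in rat and 93.9, 94.3 and 94.3 in mouse, where its region was 66599 bp long, did not cover its start and listed 8 genes. With the region nearest to the start Tyrobp differed by -4.48 points and was not called. Csf1r, the receptor that microglia need to survive, stood at 52.8, 42.4 and 52.6 in rat and 76.4, 79.7 and 80.6 in mouse, in matched regions, and lost its call with the highest signal of the region (-12.0 points). Of 15 oligodendrocyte genes 3 were called higher in mouse (20.0%), Ermn, Mog and Mobp, and 0 higher in rat. With the region nearest to the start Mog (-7.70 points) and Mobp (-11.9) were not called, and with the region of highest H3K27me3 Mobp was at 2.52. Of 15 vascular and meningeal genes 3 were called higher in mouse (20.0%) and 1 higher in rat (6.67%). Astrocyte genes had 1 call toward mouse among 15 (6.67%), below the background, with list medians of 80.0 ± 0.395 (n = 3) in rat and 74.8 ± 0.987 (n = 3) in mouse. The share of each cell type in the tissue was not measured, and its part in these values was not tested.

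The 29 genes of the Polycomb machinery ranged widely. In all, 5 of the 29 were in both top sets, among them Cbx2 and Cbx8, which share 1 region, Bmi1 and Pcgf1. Cbx2 stood at 99.9 in each rat library and at 98.4, 97.9 and 98.1 in mouse. Eed, the subunit that binds H3K27me3, had species means of 20.3 ± 15.9 (n = 3) in rat and 15.4 ± 7.6 (n = 3) in mouse. Ezh2, the methyltransferase, varied among rat libraries from 6.29 to 71.9, with 9.76 to 26.1 in mouse, and was not called (adjusted p = 0.21). Of the 29 genes 3 were called higher in rat (10.3%, background 7.81%) and 1 higher in mouse (3.45%, background 8.78%). Cbx7 stood at 75.6, 77.0 and 78.3 in rat and 50.3, 44.2 and 50.4 in mouse, and Cbx6 at 73.1, 72.7 and 70.8 against 44.2, 38.7 and 48.1. Both encode readers of the mark that are expressed in mature neurons. Their rat regions were more than 2 times longer than the mouse regions, and with the regions of highest H3K27me3 neither was called (12.7 points for Cbx7 and 15.4 for Cbx6). Of 30 imprinted genes 16 had matched regions. In this list 3 were called higher in rat (10.0%, near the background of 7.81%), all with matched regions, and 0 higher in mouse. Plagl1, a zinc finger factor expressed from the paternal copy, stood at 89.7, 89.5 and 92.0 in rat and 10.7, 55.4 and 48.3 in mouse. Peg12, also expressed from the paternal copy, stood at 73.5, 78.2 and 79.8 in rat and 14.3, 37.0 and 37.0 in mouse. Of 47 ribosomal protein genes, which every cell expresses, 4 were called in each direction (8.51%), near the background.

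Genes on the X chromosome had low H3K27me3 percentiles in both species, and far lower ones in mouse. Among 316 genes on X in both tables the median percentile was 17.6, 18.9 and 15.1 in the rat libraries and 3.03, 2.10 and 2.21 in the mouse libraries, while genes on other chromosomes in both tables had medians of 50.6 to 51.0 in each library. The difference of the X medians was 14.8 points (p = 0.1 by a two-sided exact permutation test, which cannot go lower with 3 libraries on each side). Of the 316 genes 275 (87.0%) were higher in rat, against 50% of the 14034 genes on other chromosomes. In 150 of the X genes every rat library was above every mouse library, and in 7 every mouse library was above every rat library. The share of genes on other chromosomes that separated in this way is not given here, so these 2 counts have no background. Of the X genes 194 (61.4%) were below percentile 5 in mouse and 42 (13.3%) in rat. With matched regions only, the median was 16.7 to 19.7 in rat and 2.06 to 2.94 in mouse over 202 genes. Calls numbered 51 toward rat (16.1%, background 7.81%) and 2 toward mouse (0.633%, background 8.78%), where the 2 were Egfl6 and Elf4. Egfl6 was on the rat side with the region nearest to the start (15.9 points) and with the region of highest H3K27me3 (20.0 points), and Elf4 lost its call with the highest signal of the region (-5.34). Without the genes of the X chromosome the fit called 1105 genes higher in rat and 1253 higher in mouse.

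**Figure D5:**
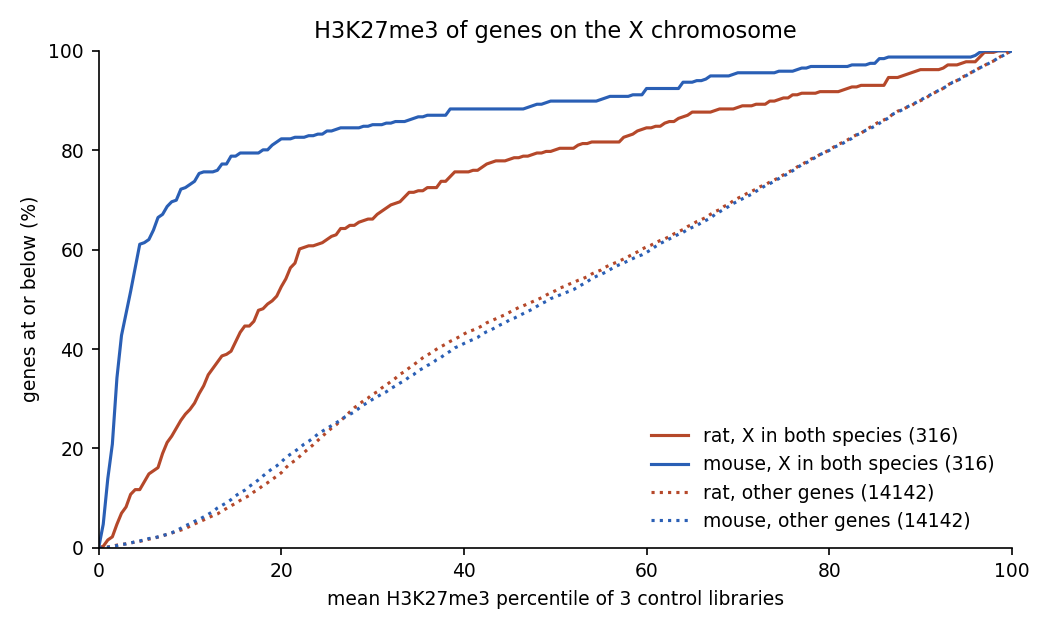
Cumulative share of genes (vertical axis, %) at or below each mean H3K27me3 percentile (horizontal axis) for 316 genes on the X chromosome in both species (solid lines) and for all other shared genes (dotted lines), in rat and mouse. The dotted lines nearly coincide, while the mouse X line rises far earlier than the rat X line, with 61.4% of X genes below percentile 5 in mouse and 13.3% in rat.

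In all, 3 X genes were in both top sets, where no call was possible on the percentile scale. Irs4, an adaptor of insulin signalling and 1 of the 3, stood at 98.6, 98.3 and 98.6 in rat and 98.2, 95.7 and 97.0 in mouse. Mid1ip1, which promotes fatty acid synthesis, was the X gene with matched regions that differed most. Its signal was 6.45, 8.96 and 4.57 in rat and 1.57, 1.53 and 1.47 in mouse, which gave percentiles of 86.3, 87.5 and 92.4 against 2.43, 1.65 and 1.46 (difference 86.9, SE 3.81, adjusted p = 2.2e-05). The rat region was chrX:13904200-13911799 on rn5 and the mouse region chrX:10713600-10721999 on mm10, both over the start. Lonrf3, a RING finger protein, stood at 78.9, 81.6 and 75.2 in rat and 7.92, 2.20 and 3.92 in mouse. Eda, a ligand for skin appendage development, stood at 85.1, 84.0 and 75.5 in rat and 5.14, 17.6 and 41.2 in mouse. Maob, which degrades monoamines, stood at 43.8, 50.4 and 33.1 in rat and 2.41, 7.01 and 6.43 in mouse. In each of the 4 genes from Mid1ip1 to Maob the lowest rat library was above the highest mouse library. For Mid1ip1, Lonrf3 and Eda this was a condition of the choice.

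Other marks on X and genes that mark sex are given beside this. Median H3K9me3 percentiles of the 316 genes were 4.79 to 7.42 in rat and 1.86 to 2.45 in mouse, so this mark was low on X in both. Median H3K4me3 was 54.9 to 60.8 in rat and 64.9 to 65.9 in mouse, and median H3K9Ac 44.4 to 48.7 in rat and 27.9 to 44.1 in mouse. In the mouse control libraries the Y genes Ddx3y, Uty, Kdm5d and Eif2s3y had H3K4me3 signals from 7.2 to 25.9, and Xist, the RNA of the inactive X chromosome, from 7.99 to 15.3, beside library medians of 7.62 to 14.7 over shared genes. These genes were not used from the rat table, and the part of sex in the X difference was not tested. Signals were not set against the pooled input of either species here, and the part of X copy number was not tested. A further 108 genes were on X in only 1 of the 2 tables, Wnt1 among them, and were left out of the X counts.

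Genes called for H3K27me3 were set against the other marks in the same libraries' tissue, with calls by the same rule. Over all shared genes, H3K4me3 was called higher in rat for 8.53% and higher in mouse for 8.33%, H3K9Ac for 12.6% and 12%, and H3K9me3 for 3.85% and 3.93%. The count for H3K9me3 depended on single libraries and fell to 407 over both directions without mouse control 2, beside 557 toward rat and 568 toward mouse with all libraries. Among the 1129 genes with H3K27me3 higher in rat, H3K4me3 was higher in mouse for 247 (21.9%) and higher in rat for 60 (5.31%). Among the 1269 with H3K27me3 higher in mouse, it was higher in rat for 361 (28.4%) and higher in mouse for 137 (10.8%). H3K9Ac lay on the opposite side for 292 (25.9%) and 299 (23.6%) of these 2 groups. With matched regions the shares were smaller, as were those of all matched genes. There, 28 of the 402 genes toward rat (6.97%) had H3K4me3 higher in mouse, beside 3.20% of all matched genes, and 12 of the 185 toward mouse (6.49%) had it higher in rat, beside 2.67%. As many of the 185, 12 (6.49%), had it higher in mouse, beside 3.20%. H3K9Ac was higher in mouse for 41 (10.2%) of the 402 and higher in rat for 59 (14.7%). It was higher in rat for 25 (13.5%) of the 185 and higher in mouse for 19 (10.3%), where all matched genes gave 9.60% toward rat and 7.71% toward mouse. H3K9me3 was higher in rat for 74 (6.55%) of the 1129 and higher in mouse for 50 (4.43%). Of the 1269 it was higher in rat for 82 (6.46%) and higher in mouse for 89 (7.01%). Its median difference, rat minus mouse, was 5.91 and -5.9 points in these 2 groups, beside -0.726 over all shared genes. With matched regions it was 9.22 in the 402 and -1.39 in the 185, beside 0.548 over all matched genes. The counts rest on H3K9me3 calls that depended on single libraries.

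The libraries of exposed animals gave a second set of values for the same regions. They entered the mean by which each gene's region was chosen, so they are not independent of the comparison of controls. In them 1122 genes (7.76%) were called higher in rat and 1180 (8.16%) higher in mouse, with TAK-418 treatment in the model. The exposure differed between the species, so these libraries do not isolate species either. Of the 1129 genes higher in control rats, 847 (75%) were called the same way in exposed animals and 1102 had the same sign, and of the 1269 higher in control mice 987 (77.8%) were called the same way and 1267 had the same sign. None was called in the opposite direction. Seen from the exposed libraries, 75.5% of the calls toward rat and 83.6% of those toward mouse were also called in controls. Mid1ip1 was higher in exposed rats by 70.9 points, Sdc2 by 51.0 and Pak1 by 33.3, and Cast was lower there by 70.5. Ap1s2, an X gene of the clathrin adaptor with 47.0, 58.1 and 69.6 in control rats and 5.11, 1.95 and 1.63 in control mice, differed by 24.1 points in exposed animals and was not called there. Median percentiles of the X genes were 11.2 to 18.5 over the 6 exposed rat libraries and 2.28 to 3.41 over the 6 exposed mouse libraries, which did not overlap.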

How the data were processed

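Chromatin from fixed frozen cortex was precipitated for 4 histone marks, with 30 ug of chromatin per reaction, and sequenced on an Illumina instrument, per the labels' protocols. BWA 0.7.12 and the mm10 and rn5 builds are named in the submitters' processing notes. How peaks were called, how wide the bins were and whether libraries were scaled to each other is not given in the sources used here. The authors deposited 1 table per species of merged regions with the mean and the highest signal of each library and, as another column, whether an interval was called there (0 or 1). Depth is unknown.

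The members, gene lists and tests were chosen with earlier results of these data known. Mean signal was ranked within each library over shared genes, and percentiles were compared with limma 3.58.1 in R 4.3.3 (trend and robust options). A gene was called at a Benjamini-Hochberg adjusted p under 0.05 and a difference of at least 25 percentile points. Adjusted p-values are over all 14458 genes. The exposed libraries were fitted with TAK-418 treatment as a covariate. The code was tested on simulated data. Genes were named by rule: the 12 largest differences per direction without overlap between the species and with a percentile of at least 90 in the higher species, the 10 highest in both species, up to 2 called members per list and direction, and the highest and lowest Hox genes. The largest differences with matched regions were also taken only without overlap. Further genes, among them those with matched regions, the X chromosome genes, the domain neighbours and uncalled list members, were chosen after their values were seen. Alternatives were other regions per gene, other scales, subsets of genes, a replicate block and leaving out each library.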

Additional observations from a re-analysis of the deposited data

How the results depend on the processing

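Calls are given as higher in rat and higher in mouse, beside 1129 and 1269. On log2(signal + 1) with quantile normalization they were 238 and 282, with a pseudocount of 0.1 they were 433 and 551, and with median centring 512 and 228. Without a minimum difference they were 3131 and 3067. Subsets tested fewer genes: 598 and 659 among genes above the median of the mean percentile, 527 and 543 with lengths within 2 times, and, chosen after seeing the data, 507 and 557 with regions over the start and 284 and 265 with both conditions. Leaving out each library gave 1041 to 1203 and 1138 to 1363. Other region choices gave similar counts of partly different genes: 1244 and 1288 with the highest H3K27me3 (541 and 562 shared), 1143 and 1308 nearest to the start (759 and 802 shared).

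Over both directions, exposed libraries gave 492 with quantile normalization, 1205 above that median and 2267 to 2342 leaving out each library. H3K4me3 gave 1354 above the median and 2385 to 2474 leaving out each library. H3K9Ac gave 789, 2235 and 3370 to 3919. H3K9me3 gave 2266 with the region highest in that mark, 108 with quantile normalization and 407 to 1070 leaving out each library, with 534 without rat control 2, 556 without rat control 3, 603 without mouse control 1, 407 without mouse control 2 and 625 without mouse control 3.

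Same-numbered rat and mouse libraries did not deviate together (correlations of -0.0839, -0.0824 and 0.0515), so the numbers do not pair them. With the replicate number as a block, H3K27me3 gave 1092 and 1257 calls, exposed libraries 2299, H3K4me3 2438, H3K9Ac 3560 and H3K9me3 319.

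Among single genes, the difference changed sign with the region of highest H3K27me3 for Egfl6 (20.0 points), Gata4 (0.549), Mgea5 (-2.64), Mobp (2.52), Tle4 (-3.52) and Wnt5b (-11.5). It changed sign with the region nearest to the start for Egfl6 (15.9), Gata4 (0.370), Pola1 (-5.79) and Wnt5b (-8.42). Of the 69 named genes, 31 lost their call on quantile-normalized log2 signal, 8 lost their call with the region of highest H3K27me3, 6 with the region nearest to the start and 8 with the highest signal of the region, in the same direction. The 69 include genes that had no call to lose, such as Bmi1, Pax6 and Gad1. Among the called genes the share lost was therefore larger than 31 of 69. Others of the 69, such as Mid1ip1, Sdc2, Pak1 and Cast, were named only because their call held under both other region choices. They could not lose it there, so the counts of 8 and 6 for those choices understate the loss. Over all calls, 38.3% of those toward rat and 35.5% of those toward mouse held under all 3 choices. The losses on log2 signal include Gabrb2 (0.470 log2 units), Gria2 (0.295), Kcnd2 (0.361), Csf1r (-0.662) and Msc (0.829). The cause was not tested.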
